A study of Mus musculus with 6 samples.

Results

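Filaggrin and its relatives are large, repeat-rich proteins of the upper epidermis and its appendages, and 9 of their genes are described here out of 45513 identifiers in the deposited count table. They were chosen by name: 7 genes of the fused-type S100 family (Flg, Flg2, Hrnr, Rptn, Tchh, Tchhl1 and Crnn) and the genes of 2 proteases that cut profilaggrin (Casp14 and Asprv1). All 9 symbols were found, each under 1 Ensembl identifier, and 8 passed the filter on low counts. Flg, the gene of filaggrin itself, did not.

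Fused-type S100 proteins join a calcium-binding S100 domain at their amino end to long tandem repeats. In granular keratinocytes profilaggrin is stored in keratohyalin granules, then dephosphorylated and cut into filaggrin units that bundle keratin filaments. Caspase-14 and the aspartic protease SASPase, the product of Asprv1, take part in this cutting in mice, and the released units are later broken down to the amino acids that hold water in the cornified layer. Trichohyalin, the product of Tchh, plays the matching part in the inner root sheath and medulla of hair, where it is hardened by deimination and cross-linking.

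The knockout mice were Lama3 flox/flox with K14-CreERT on a C57BL/6 background, in which tamoxifen lets Cre cut Lama3, the gene of the alpha chain of laminin 332, in K14-expressing basal keratinocytes. The controls also carried K14-CreERT but had 1 wild type and 1 floxed Lama3 allele per the design text, while their genotype label reads wild type. Cre was switched on with chow that held 400 mg tamoxifen citrate per kg, and neither the age of the mice nor the time on the chow is given. RNA came from keratinocytes isolated from the skin of 3 knockout and 3 control mice, sequenced as paired reads of 100 bases. The floxed allele has loxP sites around exons 50 to 53, other cell types of the skin keep the gene, and a control allele can also recombine.

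Total counts were 24192158 to 28473479 in the knockouts and 20126395 to 25429816 in the controls. Levels are given as CPM, counts divided by the scaled library size. Lama3, counted over all its exons and not only the floxed ones, was at 97.3, 98.9 and 79.2 CPM in the knockouts, against 141, 142 and 114 CPM in the controls (log2 fold change -0.53, SE 0.14, edgeR adjusted p = 0.0215). The basal keratins that mark these cells were abundant in both groups, with Krt14 at 4719 ± 614 CPM in the knockouts and 4247 ± 511 CPM in the controls. Of 9 tested basal keratinocyte markers edgeR called 2 higher (Itgb4 and Cdh3) and 1 lower, at adjusted p under 0.05, and 6 were not called. Over all genes tested 17.4% were called higher and 18.8% lower. The basal marker that fell was Krt15, at 2315 ± 525 CPM in the knockouts and 4411 ± 1196 CPM in the controls. Mitochondrial transcripts took 2.40% to 4.16% of the counts in the knockouts and 4.71% to 9.67% in the controls, so the groups did not overlap, and the part of this difference in the results below was not tested. T cell markers were called lower in the knockouts in 7 of 7 tested genes, against 18.8% of all genes tested. Their summed level was 53.4 to 78.6 CPM in the knockouts and 137 to 292 CPM in the controls. Called lower too were 5 of 6 melanocyte and 4 of 5 blood markers, of which 1 and 3 passed the filter on low counts through the controls only. Of 7 fibroblast markers 2 were called lower, 1 of them passing through the controls only, and 5 were not called. Of 7 myeloid and Langerhans cell markers 1 was called higher (C1qa), 1 lower and 5 not. Cxcr2, the only neutrophil marker tested, was called higher but passed the filter only through the knockouts. Xist was high in knockouts 1 and 2 and in control 1, and the Y-linked Ddx3y in the other 3 libraries, so the groups also differ in sex.

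The 7 fused-type genes lie next to one another on the plus strand of chromosome 3 (chr3:93144787-93471980, GRCm38), in a stretch of 327194 bases that holds no other coding gene, in the order Crnn, Flg2, Flg, Hrnr, Rptn, Tchh and Tchhl1. Casp14 lies on the minus strand of chromosome 10 (chr10:78711991-78718294) and Asprv1 on the plus strand of chromosome 6 (chr6:86628164-86629710). Promoter windows of 300 bases, from 250 before to 50 after the RefSeq start (GRCm38.p6), were available for all 9 genes. The letters TGANTCA, a loose form of the AP-1 site with any base in the middle, stood in 5 of the 9 windows. They stood in 7.81% of all 32851 RefSeq promoter windows. The 5 matches read TGAATCA in Flg, Flg2, Tchhl1 and Crnn and TGATTCA in Rptn. None read TGACTCA or TGAGTCA, the usual letters of an AP-1 site, so AP-1 letters here means the loose form only. The TATA letters TATAAA stood in 4 of the 9 windows against 13.6% of all windows, and the C/EBP letters TTNNGCAA in 3 of the 9 against 10.8%. Both strands were searched, TGANTCA reads the same on both, and a match describes letters only. Other TATA forms were not searched, such as the letters tatataa in the Flg2 window.

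The 120 bases before the start are shown for the 6 fused-type genes with an AP-1 or TATA match, because the AP-1 letters lie at a like place in genes that rose and in genes that fell. Capitals mark TGANTCA and TATAAA matches. All are on the plus strand of chromosome 3, at chr3:93144669-93144788 for Crnn, chr3:93197153-93197272 for Flg2, chr3:93273426-93273545 for Flg, chr3:93319629-93319748 for Hrnr, chr3:93393579-93393698 for Rptn and chr3:93468634-93468753 for Tchhl1.
Crnn: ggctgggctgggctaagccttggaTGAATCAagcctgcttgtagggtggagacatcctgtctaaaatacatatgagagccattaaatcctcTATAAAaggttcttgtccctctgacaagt
Flg2: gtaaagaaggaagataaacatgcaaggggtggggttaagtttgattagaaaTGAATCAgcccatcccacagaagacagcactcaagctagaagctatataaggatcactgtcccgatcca
Flg: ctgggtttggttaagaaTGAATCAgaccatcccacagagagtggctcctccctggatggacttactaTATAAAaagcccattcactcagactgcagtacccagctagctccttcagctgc
Hrnr: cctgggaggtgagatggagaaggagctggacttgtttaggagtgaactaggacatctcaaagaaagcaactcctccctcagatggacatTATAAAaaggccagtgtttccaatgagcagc
Rptn: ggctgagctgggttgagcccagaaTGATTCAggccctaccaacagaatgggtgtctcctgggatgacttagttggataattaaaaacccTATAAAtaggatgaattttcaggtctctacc
Tchhl1: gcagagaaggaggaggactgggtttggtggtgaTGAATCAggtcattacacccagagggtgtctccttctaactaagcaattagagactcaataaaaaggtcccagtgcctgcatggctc
The AP-1 letters begin 103 bases before the start in Flg, 96 in Rptn and Crnn, 87 in Tchhl1 and 69 in Flg2. Hrnr has none but holds a TATA match 31 bases before its start, as does Rptn. Tchh, Casp14 and Asprv1 had no match to any of these letters in their windows.

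**Figure D1:**
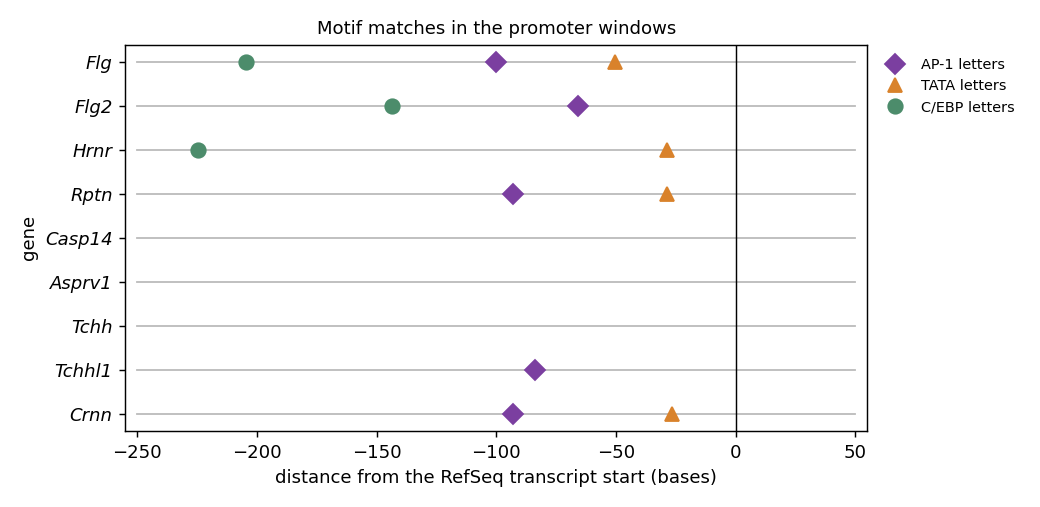
Positions of AP-1, TATA and C/EBP letters in the promoter windows of the 9 genes, with the distance from the RefSeq transcript start in bases on the horizontal axis and 1 row for each gene. The AP-1 letters of 5 genes begin between 103 and 69 bases before the start, and the rows of Tchh, Casp14 and Asprv1 are empty.

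Between knockout and control keratinocytes 5 of the 9 genes rose, 3 fell and Flg was not tested. The genes that rose were Flg2, Hrnr, Rptn, Casp14 and Asprv1, by 2.84-fold for Asprv1 up to 13.7-fold for Rptn. Those that fell were Tchh, Tchhl1 and Crnn. A gene was called where the p of edgeR's quasi-likelihood test, Benjamini-Hochberg adjusted over 15513 genes, lay under 0.05. Of all these genes 36.2% were called, 17.4% as higher and 18.8% as lower in the knockouts. With upper-quartile factors 30.6% of all called genes were higher, against 48.0% here, and these 8 genes had the same calls with both. In a bulk library more cells of a layer and more RNA per cell cannot be told apart. Tchhl1 and Crnn passed the filter on low counts only through the controls, where they are high.

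**Figure D2:**
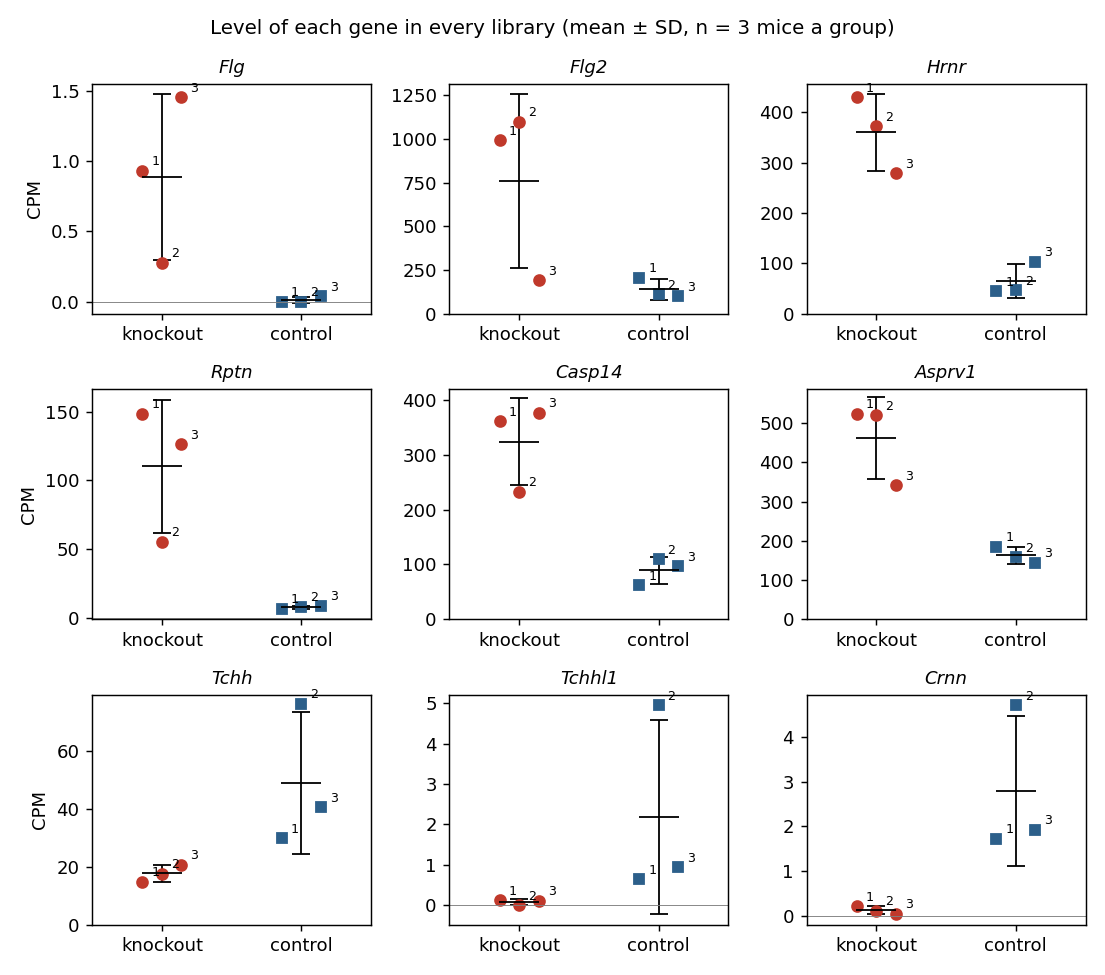
CPM of each gene in every library, with points numbered by mouse, the 3 knockouts left of the 3 controls, and bars for the mean ± SD (n = 3 each). The groups do not overlap in Hrnr, Rptn, Casp14, Asprv1, Tchh, Tchhl1 and Crnn. Of all genes tested 25.2% had all knockouts above all controls and 26.5% had all below. Tchhl1 and Crnn passed the filter on low counts only through the controls. In Flg2 knockout 3 lies at 190 CPM, under the 207 CPM of control 1.

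Filaggrin itself was almost absent from the table. Flg (ENSMUSG00000102439, chr3:93273523-93293686) was listed with 22, 8 and 40 counts in knockouts 1, 2 and 3, against 0, 0 and 1 counts in controls 1, 2 and 3. The 3 knockouts were thus all above the controls, with 70 counts in all against 1. Corrected for depth the ratio of these sums was 60.3 (95% exact interval 10.5 to 2416, counting error only). A count of 0 allows up to 0.149 CPM in control 2, the shallowest library.

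Per kilobase of annotated exon Flg came to 0.0471 ± 0.0312 CPM in the knockouts and 0.000696 ± 0.00121 CPM in the controls. Its transcript is repetitive: 71.3% of the 100-base windows in the longest Flg transcript occur more than once within it, and 28.7% (4136 windows) occur once in the whole set of GENCODE transcripts. Flg also carries the GENCODE tags for a reference genome error and an overlapping locus, and Flg2 the first of these. Whether reads matching several places were dropped, and whether a part of filaggrin was counted under one of the 928 identifiers with no symbol in GENCODE M21, is not given in the sources used here. The listed Flg counts are therefore not read as the level of filaggrin RNA.

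**Figure D3:**
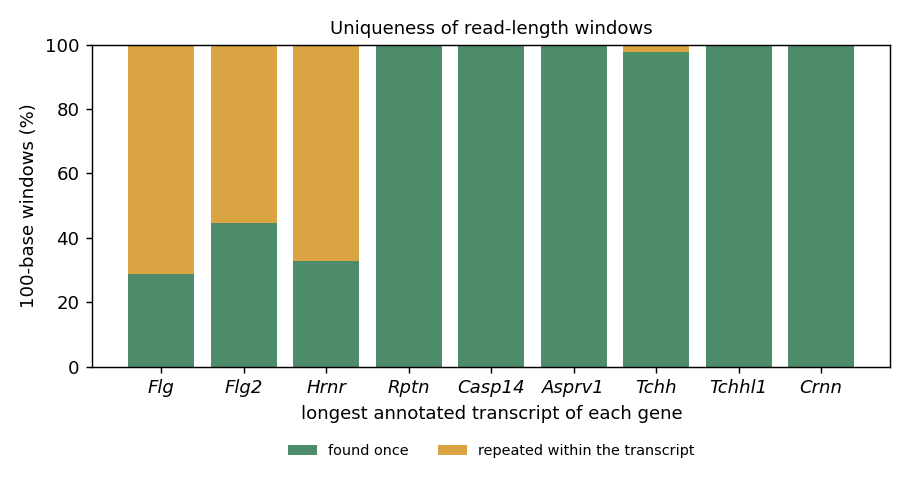
Share of 100-base windows of the longest annotated transcript of each gene that occur once (lower part) or more than once within that transcript (upper part), in percent. Flg, Hrnr and Flg2 stand apart with 71.3%, 67.3% and 55.5% repeated windows, against 2.43% in Tchh and 0 in the other genes.

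The nearest relatives of filaggrin rose. Hrnr encodes hornerin, a filaggrin-like protein of the granular and cornified layers, and held 430, 373 and 279 CPM in knockouts 1, 2 and 3, against 44.5, 46.9 and 104 CPM in controls 1, 2 and 3. Every knockout exceeded every control, which was the case for 25.2% of all genes tested, and control 3 was the highest control. The log2 fold change of Hrnr was 2.47 (SE 0.35, edgeR adjusted p = 0.00325).

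Flg2 encodes filaggrin-2, another protein of these layers. It held 993, 1097 and 190 CPM in knockouts 1, 2 and 3, against 207, 113 and 98.9 CPM in controls 1, 2 and 3. Knockouts 1 and 2 stood far above all controls, while knockout 3 fell within their range. The log2 fold change of Flg2 was 2.45 (SE 0.63, edgeR adjusted p = 0.0230), and 8 of 9 pairs of a knockout and a control had the knockout higher. Flg2 was no longer called if knockout 1 (adjusted p = 0.0642), knockout 2 (0.0654), control 2 (0.0843) or control 3 (0.0912) was left out, or if all genes were kept regardless of count (0.119). With sex as a covariate the log2 fold change of Flg2 was 1.59 (SE 0.35, adjusted p = 0.0147), a fold over 1.5 times smaller. Since 55.5% of the 100-base windows of Flg2 and 67.3% of those of Hrnr are repeated within the transcript, their levels depend on how such reads were counted, which is not given.

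Of the 5 genes called higher, repetin had the highest fold. Rptn encodes a precursor of the cornified envelope, known in the mouse from epidermis and from the lining of tongue and forestomach. It held 149, 55.5 and 126 CPM in the knockouts, against 6.89, 8.29 and 8.92 CPM in the controls. Every knockout exceeded every control, as in 25.2% of all genes tested, and knockout 2 was the lowest knockout. The log2 fold change of Rptn was 3.78 (SE 0.37, edgeR adjusted p = 0.00127). All 100-base windows of its transcript are unique, and the 45 exon bases it shares with the unclassified gene Gm37857 concern a gene with at most 7 counts in a library.

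Both proteases of filaggrin processing rose as well. Casp14, whose product cuts filaggrin units in mouse epidermis, held 362, 233 and 377 CPM in knockouts 1, 2 and 3, against 62.3, 110 and 97.0 CPM in controls 1, 2 and 3. Asprv1 held 524, 520 and 342 CPM in the knockouts, against 185, 158 and 144 CPM in the controls. In both genes every knockout exceeded every control, as in 25.2% of all genes tested. The log2 fold change was 1.85 (SE 0.26, edgeR adjusted p = 0.00302) for Casp14 and 1.51 (SE 0.20, edgeR adjusted p = 0.00253) for Asprv1.

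The balance of the 2 proteases was not shown to differ. The ratio of Casp14 to Asprv1 CPM was 0.692, 0.449 and 1.10 in knockouts 1, 2 and 3, against 0.337, 0.695 and 0.672 in controls 1, 2 and 3. The mean log2 ratio was higher by 0.37 in the knockouts, within the spread of either group (SD 0.65 in knockouts and 0.59 in controls, n = 3 each, 2-sided exact permutation p = 0.5, with 0.1 the smallest possible). The ratio of Flg2 to Hrnr, chosen after the data were seen, ranged from 0.680 to 2.94 in the knockouts and from 0.955 to 4.65 in the controls (2-sided exact permutation p = 0.6, n = 3 each).

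The 3 genes that fell are known from hair or from other squamous epithelia. Tchh held 14.8, 17.6 and 20.7 CPM in the knockouts, against 29.8, 76.3 and 40.6 CPM in the controls. All knockouts lay below all controls, as in 26.5% of all genes tested, and control 2 was the highest. The log2 fold change of Tchh was -1.47 (SE 0.33, edgeR adjusted p = 0.0136), but it was no longer called if knockout 1 was left out (adjusted p = 0.0510) or all genes were kept regardless of count (0.0631).

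Tchhl1, the trichohyalin-like gene beside Tchh, was listed with 3, 0 and 3 counts in the knockouts, against 15, 104 and 24 counts in the controls. Crnn encodes cornulin, which in human is best known from oesophageal epithelium, and had 5, 3 and 1 counts in the knockouts, against 40, 99 and 49 counts in the controls. Control 2 was the highest library for both, as for Tchh, and no knockout reached a control, as in 26.5% of all genes tested. Corrected for depth, the summed counts of the knockouts were 0.0362 times those of the controls for Tchhl1 (95% exact interval 0.0131 to 0.0807) and 0.0413 times for Crnn (0.0186 to 0.0800), with counting error only. The log2 fold change was -4.74 (SE 1.09, edgeR adjusted p = 0.0148) for Tchhl1 and -4.55 (SE 0.65, edgeR adjusted p = 0.00304) for Crnn. Both were still called without control 2, at -3.30 for Tchhl1 and -3.94 for Crnn. Tchhl1 was also called without knockout 2 (-4.14) and Crnn without knockout 1 (-5.18), and Tchhl1 was at -4.12 with sex as a covariate. Both passed the filter on low counts only through the controls, where they are high, so these repeated calls are no support.

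Hair markers were lower in the same libraries. Of 12 tested genes on a list of 13 inner root sheath and medulla markers 9 fell, 1 rose and 2 were not called. Over all genes tested 18.8% were called lower and 17.4% higher. Of the 9 that fell 7, Krt25 and Krt27 among them, passed the filter on low counts only through the controls, where they are high. Of the 5 that passed it in both groups 2 fell, 1 rose and 2 were not called. Krt25, an inner root sheath keratin, held 0.0846 to 0.290 CPM in the knockouts and 13.7 to 50.7 CPM in the controls, and Krt27 held 0.211 to 0.327 CPM in the knockouts and 9.99 to 32.1 CPM in the controls. The summed level of the list overlapped between the groups, at 131 to 222 CPM in the knockouts and 156 to 365 CPM in the controls. Ctsc, Tgm3 and Krt75, none of them called lower, made up most of it in the knockouts, at 88.1, 43.7 and 38.1 CPM on average. The sum therefore does not describe the inner root sheath keratins. Of 13 tested hair shaft markers 11 fell and 2 were not called, but 8 of the 11, Krt35 and Krt33a among them, likewise passed only through the controls, and of the 5 that passed in both groups 3 fell. Krt35, a hair cortex keratin, held 0 to 0.140 CPM in the knockouts and 7.92 to 29.3 CPM in the controls, and Krt33a held 0.0363 to 0.0698 CPM in the knockouts and 2.97 to 9.58 CPM in the controls. The summed level of the list was 26.8 to 35.3 CPM in the knockouts and 83.2 to 138 CPM in the controls. Krt81, Krtap8-1 and Krtap3-1 had no counts in any knockout.

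Control 2, the highest library for Tchh, Tchhl1 and Crnn, was also the highest for Krt25 (50.7 CPM) and Krt27 (32.1 CPM). Of 4 tested markers of oral and oesophageal epithelium 1, Krt4, fell, where 18.8% of all genes tested were called lower. Krt4 held 3.38 ± 2.38 CPM in the knockouts and 10.9 ± 5.05 CPM in the controls, and Sprr3 had no counts in any library. The summed level of that list was 65.1 to 88.5 CPM in the knockouts and 37.1 to 79.6 CPM in the controls. Krt24, which was not called, made up most of this sum, at 75.3 ± 12.4 CPM in the knockouts and 45.3 ± 16.1 CPM in the controls. The part of hair cells in the falls of Tchh, Tchhl1 and Crnn was not tested.

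Per kilobase of exon, the order of the tested genes differed between the groups. Rptn stood above Tchh in the knockouts and below it in the controls. The places of Flg2 and Hrnr depend on how reads from their repeated windows were counted, which is not given. In the knockouts Asprv1 (299 ± 67.0 CPM per kb) and Casp14 (135 ± 33.1) led, followed by Flg2 (36.5 ± 23.9), Hrnr (32.2 ± 6.82) and Rptn (26.6 ± 11.7), which did not differ beyond their spread, and then by Tchh (3.04 ± 0.510). In the controls Asprv1 (105 ± 13.4 CPM per kb) and Casp14 (37.5 ± 10.2) also led, but Tchh (8.40 ± 4.18) came beside Flg2 (6.70 ± 2.82) and Hrnr (5.81 ± 2.99), within one another's spread. Rptn (1.94 ± 0.251), Crnn (1.5 ± 0.897) and Tchhl1 (1.06 ± 1.17) followed in the controls. Together the 9 genes took 0.242%, 0.231% and 0.133% of the counts in knockouts 1, 2 and 3, against 0.0526%, 0.0544% and 0.0497% in controls 1, 2 and 3.

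The knockouts were not alike, and the genes that rose fell into different orders. Flg2, Hrnr and Asprv1 were lowest in knockout 3, and so was Lor, the gene of loricrin, with 1452, 1636 and 356 CPM in knockouts 1, 2 and 3, against 175, 84.1 and 83.8 CPM in controls 1, 2 and 3. Rptn and Casp14 were instead lowest in knockout 2. Knockout 3 was the only knockout with high Ddx3y, and control 1, the only control with high Xist, was the highest control for Flg2, Asprv1 and Lor. For Hrnr, Rptn and Casp14 control 1 was instead the lowest control, at 44.5, 6.89 and 62.3 CPM. With 1 knockout of high Ddx3y and 1 control of high Xist, sex and mouse cannot be told apart. Among the 5 genes that rose the coefficient of variation in the knockouts was 65.3% for Flg2, 44.1% for Rptn and 21.2% to 24.4% for the others. In the controls Hrnr, at 51.5%, was more variable than Flg2, at 42.1%.

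**Figure D4:**
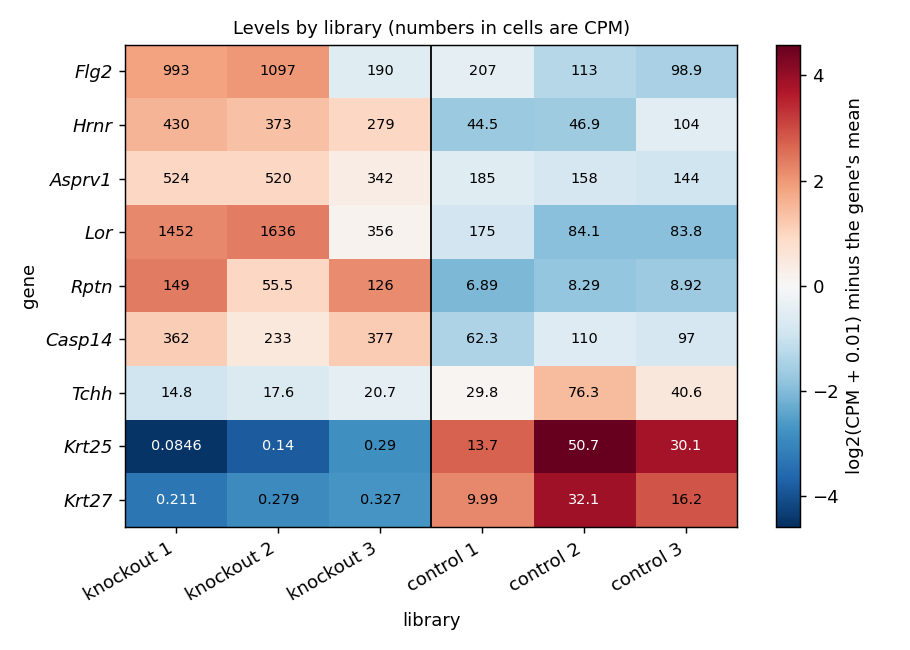
CPM of selected genes in the 6 libraries, with knockouts left of controls and colour giving the log2 level minus the mean of the gene. Flg2, Hrnr, Asprv1 and Lor are lowest in knockout 3 among the knockouts, Rptn and Casp14 in knockout 2, and Tchh, Krt25 and Krt27 are highest in control 2.

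In the wider machinery of filaggrin maturation and breakdown, 10 of 22 tested genes rose, 2 fell and 10 were not called, where 17.4% of all genes were called higher and 18.8% lower. The list holds 24 genes, and the median log2 fold change of those tested was 0.80, against -0.02 over all genes tested. Furin and Pcsk6, proprotein convertases that can cut the amino end of profilaggrin, rose by 0.91 (SE 0.16) and 1.83 (SE 0.19) on the log2 scale. Pcsk6 reached 77.1 CPM in the knockouts, against 21.8 CPM in the controls. The membrane protease gene St14, matriptase, rose by 0.72 (SE 0.11), and Prss8, prostasin, at 0.62 (SE 0.24, edgeR adjusted p = 0.0766) was not called.

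Among the kallikreins and their inhibitor, Klk5 rose by 1.03 (SE 0.13) and Spink5, the kallikrein inhibitor LEKTI, by 2.12 (SE 0.28). Spink5 held 1251, 1399 and 765 CPM in the knockouts, against 325, 211 and 251 CPM in the controls, with knockout 3 again the lowest knockout. Klk7 had a log2 fold change of 0.53 (SE 0.18) and was not called (edgeR adjusted p = 0.0527). Klk6 and Klk13 were lowest in knockout 2 among the knockouts, with 14.4 and 0.628 CPM, and neither was called.

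Several enzymes of the last steps and other genes of the list rose too. Blmh, bleomycin hydrolase, which breaks filaggrin peptides down to amino acids, rose by 1.05 (SE 0.22), and the calpain gene Capn2 by 1.91 (SE 0.17), whereas Capn1 was not called (edgeR adjusted p = 0.0716). Hal, the histidase that turns free histidine into urocanate, held 408 ± 107 CPM in the knockouts and 152 ± 23.9 CPM in the controls, a log2 fold change of 1.43 (SE 0.23). Tmem79, the gene mutated in the matted mouse, rose by 0.87 (SE 0.14), and Ctsl, a lysosomal cathepsin, by 0.97 (SE 0.31) with overlapping groups.

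The 2 genes that fell were Padi3 and Cst6. Padi3 encodes a peptidylarginine deiminase of hair and epidermis that acts on trichohyalin and filaggrin, and held 0.127, 0.0698 and 0.218 CPM in the knockouts, against 1.38, 5.62 and 2.55 CPM in the controls, with control 2 again the highest. Like Tchhl1 and Crnn it passed the filter only through the controls, and it stands on the hair list as well. Padi1, the other deiminase of upper epidermis, was at 0.687 CPM in the knockouts and 0.662 CPM in the controls. Cst6, cystatin M/E, an inhibitor of legumain and of cathepsins, fell by 1.47 (SE 0.22) to 959 ± 199 CPM in the knockouts, against 2658 ± 309 CPM in the controls.

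**Figure D5:**
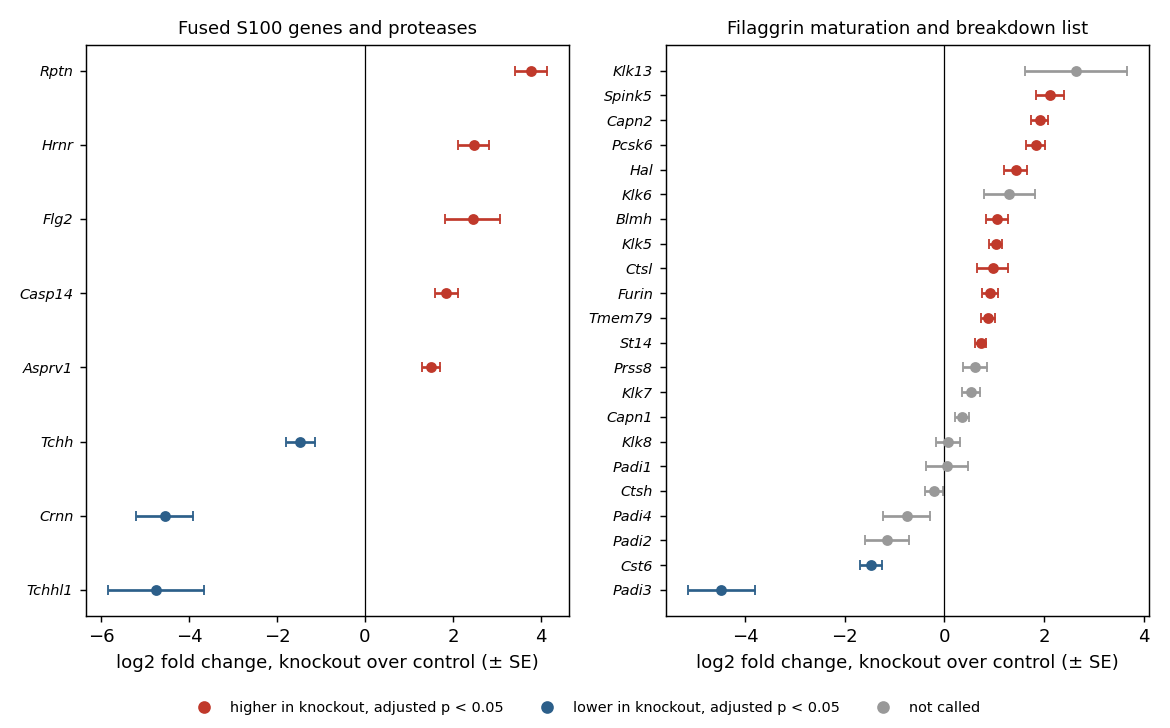
Log2 fold change of knockout over control with its SE for the 8 tested genes of the fused S100 and protease group (left) and the 22 tested genes of filaggrin maturation and breakdown (right), coloured by call. On the right 10 genes are called higher, from St14 at 0.72 to Spink5 at 2.12, and Cst6 and Padi3 are called lower.

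Partners of these proteins in the cornified envelope were read beside them. Of 23 tested genes of the envelope and upper layers 14 rose, 2 fell and 7 were not called, where 17.4% of all genes were called higher and 18.8% lower. The median log2 fold change of this list was 1.15, against -0.02 over all genes tested. Spink5, among those that rose, stands on the maturation list as well. Nccrp1, of this list the gene with the smallest p, rose by 3.23 (SE 0.13). It held 220, 218 and 259 CPM in the knockouts, against 26.7, 25.5 and 22.4 CPM in the controls. This list, like the others, was chosen with earlier results of these data known. Its counts and the place of Nccrp1 are therefore no independent result. Tgm1, the transglutaminase that cross-links the envelope, rose by 2.16 (SE 0.11) and Cnfn, cornifelin, by 2.30 (SE 0.17). Ivl, involucrin, held 197, 193 and 213 CPM in the knockouts, against 65.6, 81.7 and 92.8 CPM in the controls (log2 fold change 1.33, SE 0.15). Its 3 knockouts lay close together, unlike those of Flg2 and Lor. The 2 that fell were Prr9, a proline-rich gene that passed the filter only through the controls, and Krt2, a keratin of the upper epidermis. On the log2 scale Prr9 fell by 4.94 (SE 0.53). Krt2 held 0.930, 2.16 and 2.5 CPM in the knockouts, against 5.0, 24.3 and 157 CPM in the controls, with control 3 far above the others. S100a11, the coding gene next to Tchhl1, was not called at 604 ± 87.8 CPM in the knockouts and 509 ± 62.2 CPM in the controls (edgeR adjusted p = 0.295).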

How the data were processed

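The values were whole-number counts per Ensembl gene for 6 libraries, deposited by the authors as 1 table. The tools named are TopHat 1.3.3, featureCounts 1.4.6 and Cuffdiff 1.3.0, with the build GRCm38, per the submitters' processing notes. How they were set, which annotation they used, and how strand and multiply matching reads were treated is not given in the sources used here. Symbols came from GENCODE M21 (97.96% of 45513 identifiers). The 928 without one (0.103% to 0.156% of a library's counts) stayed in library sizes and tests.

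Counts were scaled by TMM factors, filtered with filterByExpr by group and tested with edgeR 4.0.16 (R 4.3.3, robust quasi-likelihood fit, group only), and 15513 genes were tested. The SE is the log2 fold change over the root of the F statistic. CPM per kb uses the union of GENCODE exons. Single ratios were compared by a 2-sided exact permutation test. The test was checked on simulated counts. Ratios to Flg were planned but are not given, because Flg was at 0 in controls 1 and 2.

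Members and lists were chosen with earlier results of these data known. The 9 genes are all named. From the pathway, envelope and regulator lists the 4 called genes of smallest p were taken, from other lists 2 (or 1 where none was called), each printed only where it bears on the 9 genes. A gene passed the filter through one group only where all 3 of its libraries, but not all 3 of the other group, reached the CPM minimum of the filter. Furin, St14, Prss8, Klk6, Klk7, Klk13, Blmh, Capn1, Hal, Tmem79, Ctsl, Padi1, Padi3, Cst6, Lor, Prr9, Krt2, Dgat2, Krt14, Krt15, Trp63, Krt81, Krtap8-1, Krtap3-1 and S100a11 were chosen after their values were seen. Of 207 list entries 203 were found. Alternatives comprised DESeq2 1.42.0 and its size factors, upper-quartile factors, other filters, a replicate block, sex as a covariate and each library left out. Per the labels the libraries are separate mice.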

Additional observations from a re-analysis of the deposited data

How the results depend on the processing

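Over 13 alternative settings no log2 fold change of the 8 tested genes changed sign. Hrnr, Rptn, Crnn, Casp14 and Asprv1 were called in each of them, and Tchhl1 in the 12 in which it was tested. Crnn and Tchhl1 passed the main filter only through the controls, so their calls with a library left out are no support. Flg2 lost its call in 5 settings (log2 fold change 1.59 to 2.91 over all settings) and Tchh in 2 (-1.72 to -0.98). Flg entered the test with no filter on low counts (log2 fold change 5.56, SE 0.95, edgeR adjusted p = 0.000631). It also entered, and was called, without knockout 2 or any 1 of the controls. In these settings with a library left out it passed the filter only through the knockouts, where it is high, so its calls there are no support. Flg is included in the numbers of the 9 genes called higher in those settings. With a library left out, 4 to 6 of the 9 genes were called higher and 2 to 3 lower, 9 to 13 genes of the maturation list were higher and 2 to 3 lower, and over all genes 1586 to 2754 were higher and 1714 to 2771 lower. These totals fell by over 1.5 times without knockout 1 (1681 higher, 1735 lower) or control 3 (1586 and 1714), and the lower one without knockout 2 (1750). DESeq2 called 14 of the maturation list higher. Upper-quartile factors gave 1756 higher genes and moved the median of all genes by -0.15 on the log2 scale. The difference in the Casp14 to Asprv1 log2 ratio was 0.03 to 0.69 with a library left out, and that of Flg2 to Hrnr -1.0 to 0.24, which reversed without knockout 3 (0.24) or control 1 (0.14). The cause was not tested.

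The replicate numbers share no stated source. The deviations of same-numbered libraries correlated at -0.11, -0.10 and 0.42, and 1 of 3 knockouts correlated best with its own number. The replicate block left 5 of the 9 genes higher and 3 lower, 11 and 3 of the maturation list, and 2422 and 2701 of all genes. Counts under about 10 a library, as for Flg, Tchhl1 and Crnn in one group, limit the precision of their folds.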

Other observations

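Of 26 tested genes on a list of transcription factors and other regulators of the granular layer 13 rose, 1 fell and 12 were not called by edgeR. Over all genes tested 17.4% were called higher and 18.8% lower. The median log2 fold change of this list was 0.45, against -0.02 over all genes tested. Grhl3, a grainyhead-like factor of barrier formation, held 164, 154 and 154 CPM in the knockouts, against 76.8, 87.5 and 93.4 CPM in the controls (log2 fold change 0.87, SE 0.11). Ppard, a lipid-activated nuclear receptor, rose by 1.22 (SE 0.17) and Cebpa by 0.98 (SE 0.16). Pparg, a nuclear receptor of sebaceous and fat cells, fell by 1.63 (SE 0.17) to 3.50 CPM in the knockouts, against 10.8 CPM in the controls, and of 10 tested sebaceous gland markers 5 fell, 4 were not called and 1, Dgat2, rose by 1.33 (SE 0.23). The stem and basal factor Trp63 was not called, at 701 CPM in the knockouts and 681 CPM in the controls.

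The profiles over the 6 libraries that lay nearest to that of Casp14, among 11327 genes of at least 5 CPM, were those of H6pd, Mgat5b and Capn2, at Euclidean distances of 0.365, 0.441 and 0.462 between centred log2 CPM. Those nearest to Tchh were Gsdma3, Fstl1 and Nsg1, at distances of 0.583, 0.649 and 0.652. Their log2 fold changes were 2.00, 1.87 and 1.91 for the first 3 and -1.40, -1.71 and -1.34 for the others. Because these genes were picked by distance over the same libraries, folds like those of Casp14 and Tchh follow from the choice.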
